A study of Mus musculus with 8 samples.

Results

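The genes described here are 7 members of the SLC13 and SLC26 families of anion transporters, *Slc13a1*, *Slc13a2*, *Slc13a3*, *Slc26a1*, *Slc26a2*, *Slc26a6*, and *Slc26a11*, which handle sulfate, citrate, and oxalate. They were taken by gene name from the deposited count table, where all 7 were found among 55367 listed genes, and all 7 were among the 20149 genes that passed a filter on low counts. RNA-Seq was performed on whole kidneys of 8-week-old C57BL/6J mice, 4 with the label Maf conditional KO (c-Maf ΔTAM mice, below ΔTAM mice) and 4 with the label Maf flox/flox (c-Maf fl/fl mice, below fl/fl mice). All 8 mice carried floxed *Maf*, the gene of the transcription factor c-Maf. The ΔTAM mice also carried a tamoxifen-inducible Cre recombinase under the CAG promoter, which is active in nearly every cell type, so the deletion was not limited to the kidney or to one of its cell types. The methods state that both groups received tamoxifen. The transporter comparison is tied to TAM(10d), that is 10 days after its injection, a time that the labels do not state. The comparison asks how kidney RNA differs after deletion of *Maf* in adult mice.

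Sulfate, citrate, and oxalate are filtered in the glomerulus and then moved across the cells of the proximal tubule. Each cell has an apical face toward the urine and a basolateral face toward the blood, and a different transporter serves each face. SLC13 proteins couple their substrates to sodium, whereas SLC26 proteins mostly exchange one anion for another. Loss of sulfate reabsorption leads to sulfate wasting in the urine, and low urinary citrate or high urinary oxalate favors calcium stones.

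Counts per mouse totaled between 16649129 and 22990257, and mitochondrial genes took 17.1% to 32.3% of them, with the highest share in ΔTAM mouse 1. *Maf* had 178, 671, 533, and 187 counts in the ΔTAM mice 1 to 4 and 7746, 7580, 6018, and 5988 counts in the fl/fl mice 1 to 4. Levels are given in CPM (counts scaled to a common library size), and genotypes were compared with the quasi-likelihood test of edgeR, in which a gene was called at a *P* value under 0.05 after Benjamini-Hochberg adjustment. On this scale, the log2 fold change of *Maf* was -4.05 (standard error [SE] 0.512, adjusted *P* = 0.0115). The sexes are not stated, and *Xist*, the transcript of the inactive X chromosome, was at most 1.29 CPM in ΔTAM mouse 1 and fl/fl mice 3 and 4 and at least 946.4 CPM in the other 5 mice. The extraction text in the labels names the liver, although the tissue is labeled whole kidney. Summed levels of 8 hepatocyte genes were 32.1 to 57.6 CPM over the 8 mice, with *Ahsg* at 0 in all of them, whereas 7 genes of the early proximal tubule summed to between 8479 and 15955 CPM.

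Of the 7 transporter genes, 2 were lower in ΔTAM mice at the threshold and none was higher, whereas 1.58% of all genes tested were lower and 0.586% were higher (2.16% in either direction). The 2 genes, *Slc26a1* and *Slc13a1*, carry sulfate across the basolateral and the apical face of the proximal tubule cell. In 4 of the 7 genes (*Slc26a1*, *Slc13a1*, *Slc13a3*, and *Slc13a2*), the highest ΔTAM mouse was below the lowest fl/fl mouse, a separation in this direction that 5.62% of all genes tested showed. The median log2 fold change of the 7 genes was -0.33, and that of all genes tested was 0.00272. Whole kidneys were measured, so fewer cells of a type and less RNA per cell cannot be told apart.

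**Figure D1:**
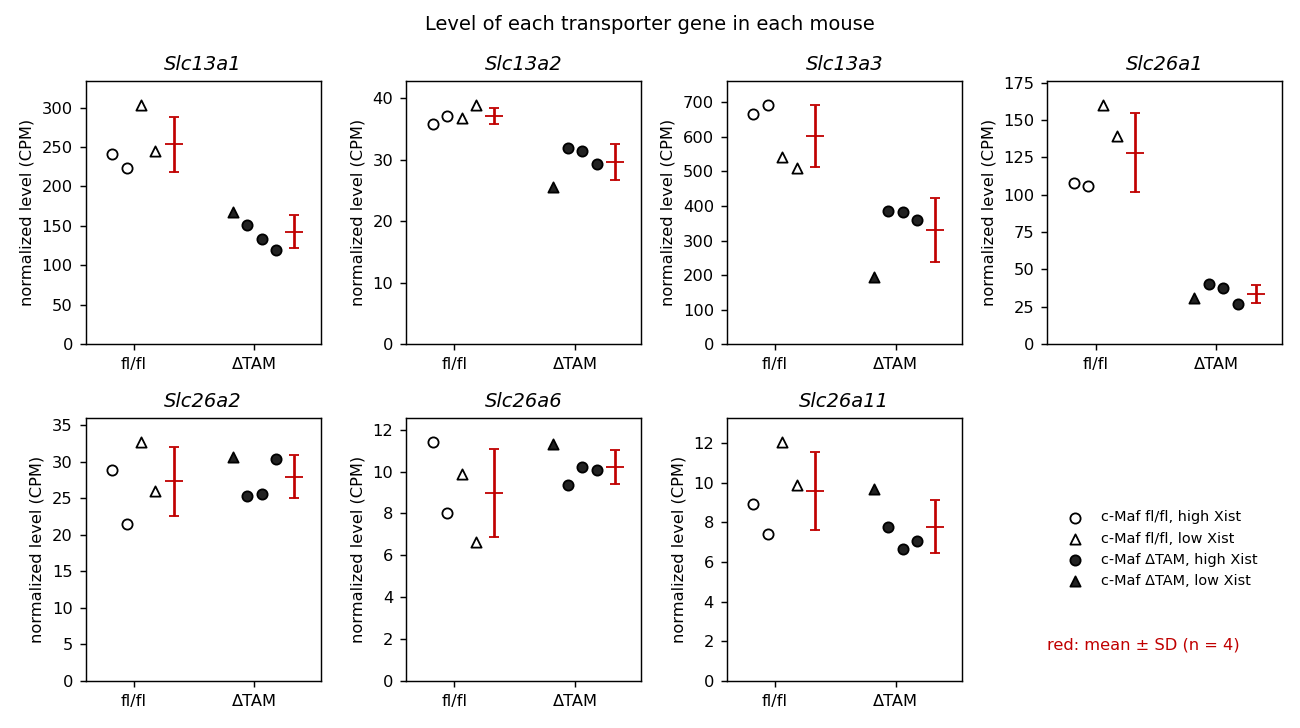
Level in CPM (vertical axes, each from 0) of the 7 transporter genes in each of 4 fl/fl mice (open) and 4 ΔTAM mice (filled), with circles for mice with high *Xist*, triangles for mice with low *Xist*, and the mean ± SD in red. *Slc26a1* was at 26.6 to 40.1 CPM in ΔTAM mice against 106.0 to 160.1 CPM in fl/fl mice, while the genotypes overlapped in *Slc26a2*, *Slc26a6*, and *Slc26a11*.

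*Slc26a1* encodes the basolateral exchanger of the proximal tubule for sulfate and oxalate. Its level was 31.0, 40.1, 37.4, and 26.6 CPM in ΔTAM mice 1 to 4 and 107.6, 106.0, 160.1, and 139.3 CPM in fl/fl mice 1 to 4. The highest ΔTAM mouse was well below the lowest fl/fl mouse. The mean was 33.8 ± 6.11 CPM (SD, n = 4) against 128.3 ± 26.2 CPM (SD, n = 4), or 26.4% of the fl/fl level. The log2 fold change was -1.92 (SE 0.167, 95% confidence interval -2.29 to -1.55, adjusted *P* = 0.00018), which was the 31st smallest *P* value of all genes tested. The 5 mice with high *Xist* gave a log2 fold change of -1.62 (adjusted *P* = 0.000212). The mice with low *Xist* include only 1 ΔTAM mouse, at 31.0 CPM, against a mean of 149.7 CPM in 2 fl/fl mice, and were not tested.

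The gene lies on the minus strand of chromosome 5, from 108669878 to 108675569 in GRCm38, within the span of *Idua*, which encodes a lysosomal enzyme and runs on the opposite strand. Only 3.48% of the exonic bases of *Slc26a1* are shared with *Idua*, and reads on shared bases were not counted. *Idua* itself was higher in ΔTAM mice, at 17.2 CPM against 10.5 CPM (log2 fold change 0.71, SE 0.127, adjusted *P* = 0.0123). The counting did not use strand, so reads from *Idua* introns that fall on *Slc26a1* exons would be counted for *Slc26a1*, and such reads could not be separated. The 2 neighbors on opposite strands thus moved in opposite directions.

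RefSeq promoter windows, each running from 250 bases before to 50 bases after an annotated start, were found for 4 of the 7 genes (5 windows). c-Maf binds the Maf recognition element, an extended form of the AP-1 site, so the windows were searched on both strands for its palindromes (TGCTGA and TCAGCA with 1 base between them in the TRE type and 2 in the CRE type), the TRE core with 1 GC flank TGANTCAGC, and the half-site TGCTGAC. The TRE-type palindrome contains this core. Neither palindrome was present in any of the 5 windows, and each occurred in 0.00609% of all 32851 promoter windows. The windows of the 2 annotated starts of *Slc26a1* are shown because each held a match, given in capitals, whereas the windows of *Slc13a3*, *Slc13a2*, and *Slc26a6* held none. Both are written 5′ to 3′ on the strand of the gene (minus strand, GRCm38.p6), chr5:108675316-108675615 for the first and chr5:108674747-108675046 for the second:
Slc26a1 first start: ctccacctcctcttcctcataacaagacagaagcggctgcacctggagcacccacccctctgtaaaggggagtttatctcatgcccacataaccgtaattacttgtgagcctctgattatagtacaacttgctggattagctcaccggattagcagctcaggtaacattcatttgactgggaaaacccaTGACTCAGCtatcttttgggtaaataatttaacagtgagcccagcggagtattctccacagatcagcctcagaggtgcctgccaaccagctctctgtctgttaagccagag
Slc26a1 second start: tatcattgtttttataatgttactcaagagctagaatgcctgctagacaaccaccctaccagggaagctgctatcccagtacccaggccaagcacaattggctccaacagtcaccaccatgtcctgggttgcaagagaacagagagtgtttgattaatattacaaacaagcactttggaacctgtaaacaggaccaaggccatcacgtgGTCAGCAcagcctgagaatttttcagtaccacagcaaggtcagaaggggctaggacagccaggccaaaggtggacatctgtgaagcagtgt

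The capitals in the first window, TGACTCAGC, begin 61 bases before the start and match the TRE core with 1 GC flank, which 1.19% of all promoter windows held. Those in the second window, GTCAGCA, begin 41 bases before the start and match the half-site on the opposite strand, which 4.67% of all promoter windows held. These are matches of letters only, and binding of c-Maf was not measured.

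*Slc13a1* encodes the apical sodium-sulfate cotransporter that takes filtered sulfate into the proximal tubule cell. It lies on the minus strand of chromosome 6, from 24088283 to 24168092. Its level was 167.3, 150.7, 133.7, and 119.3 CPM in ΔTAM mice 1 to 4 and 241.4, 223.9, 303.4, and 244.9 CPM in fl/fl mice 1 to 4. The genotypes did not overlap, and the gap between them was narrower than in *Slc26a1*. The mean was 142.8 ± 20.8 CPM against 253.4 ± 34.6 CPM (SD, n = 4 each), or 56.3% of the fl/fl level. The log2 fold change was -0.83 (SE 0.125, 95% interval -1.10 to -0.55, adjusted *P* = 0.00465), and -0.79 (adjusted *P* = 0.000141) in the mice with high *Xist*. When each of the 8 mice was left out in turn, both sulfate transporters stayed past the threshold, with log2 fold changes from -2.02 to -1.80 for *Slc26a1* and from -0.91 to -0.73 for *Slc13a1*.

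Both sulfate transporters fell, but not to the same extent. The ratio of *Slc13a1* to *Slc26a1* within a mouse does not depend on library scaling. This count ratio was 5.39, 3.76, 3.57, and 4.48 in ΔTAM mice 1 to 4 and 2.24, 2.11, 1.90, and 1.76 in fl/fl mice 1 to 4. It was higher in every ΔTAM mouse than in any fl/fl mouse. On the log2 scale of CPM with a prior count of 2, the mean ratio was 2.08 ± 0.27 against 0.99 ± 0.16 (SD, n = 4 each), a difference of 1.09. A 2-sided exact permutation test, which enumerated all 70 ways of assigning the genotypes, gave *P* = 0.0286, the smallest value this design allows, and the value adjusted over the 3 pairs tested was the same.

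**Figure D2:**
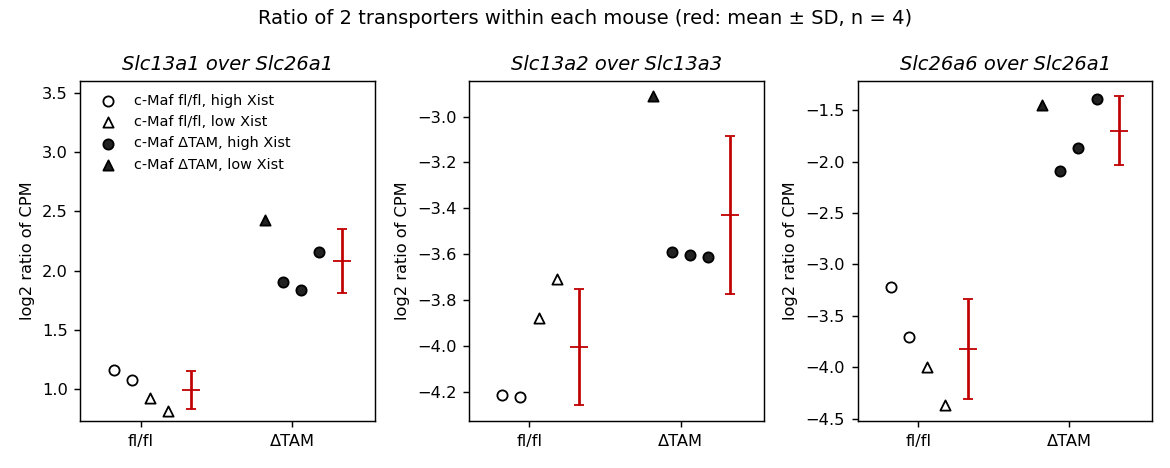
Log2 ratio of the CPM of 2 transporters within each mouse (vertical axes, which do not start at 0) for the sulfate, citrate, and oxalate pairs in 4 fl/fl and 4 ΔTAM mice, with circles for high *Xist*, triangles for low *Xist*, and the mean ± SD in red. In all 3 pairs, the ratios of the ΔTAM mice lay above those of the fl/fl mice, by 1.09, 0.58, and 2.13 on average.

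*Slc13a3* encodes the basolateral sodium-dicarboxylate cotransporter NaDC3, which takes citrate and related dicarboxylates up from the blood. It lies on the minus strand of chromosome 2, from 165405028 to 165473230. Its level was 193.3, 385.6, 383.2, and 359.8 CPM in ΔTAM mice 1 to 4 and 665.8, 692.3, 542.4, and 510.1 CPM in fl/fl mice 1 to 4. The ΔTAM mice were all lower, and mouse 1, which also had the highest mitochondrial share and low *Xist*, was far below the other 3. The mean was 330.5 ± 92.2 CPM against 602.7 ± 89.9 CPM (SD, n = 4 each), or 54.8% of the fl/fl level, close to the percentage in *Slc13a1*. The log2 fold change was -0.87 (SE 0.210, 95% interval -1.34 to -0.40), and with an adjusted *P* of 0.0763, it did not pass the threshold.

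The call in *Slc13a3* differed between settings. Without ΔTAM mouse 1, the log2 fold change was -0.68 and passed the threshold (adjusted *P* = 0.0103). In fl/fl mice, its mean was 679.1 CPM in the 2 mice with high *Xist* and 526.3 CPM in the 2 mice with low *Xist*, and the ranges of these pairs did not overlap. The 5 mice with high *Xist* gave a log2 fold change of -0.85 (adjusted *P* = 1.25e-05), and with the *Xist* level as a covariate it was -1.03 (adjusted *P* = 3.36e-06). Mouse 1 is the only ΔTAM mouse with low *Xist*, so the fit of the high-*Xist* mice leaves it out too, and mouse and *Xist* level cannot be told apart. With all 8 mice and no *Xist* term, *Slc13a3* passed with DESeq2 (adjusted *P* = 0.00171) and with the exact test of edgeR (adjusted *P* = 0.00944). These settings differ in how many genes they called lower, with 1.51% without ΔTAM mouse 1, 2.22% among the mice with high *Xist*, 4.23% with the *Xist* covariate, 2.81% with DESeq2, and 1.21% with the exact test.

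*Slc13a2* encodes the apical cotransporter NaDC1, which reabsorbs filtered citrate. It lies on the minus strand of chromosome 11, from 78397087 to 78422217, and 26.2% of its exonic bases are shared with the antisense transcript *Slc13a2os* and were not counted. Its level was 25.6, 31.9, 31.4, and 29.3 CPM in ΔTAM mice 1 to 4 and 35.8, 37.0, 36.8, and 38.9 CPM in fl/fl mice 1 to 4. The fl/fl values were close together, with a coefficient of variation of 3.50%, and all ΔTAM values were below them. The mean was 29.6 ± 2.89 CPM against 37.1 ± 1.30 CPM (SD, n = 4 each), or 79.7% of the fl/fl level. The log2 fold change was -0.33 (SE 0.0917, 95% interval -0.53 to -0.13) and did not pass the threshold (adjusted *P* = 0.105). It passed with DESeq2 (adjusted *P* = 0.0475) and with the *Xist* covariate (adjusted *P* = 0.0235). *Slc13a2os* was at 5.09 CPM against 3.23 CPM (adjusted *P* = 0.286).

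The ratio of apical *Slc13a2* to basolateral *Slc13a3* was 0.132, 0.0828, 0.0821, and 0.0814 in ΔTAM mice 1 to 4 and 0.0537, 0.0535, 0.0678, and 0.0762 in fl/fl mice 1 to 4. All ΔTAM ratios were higher, although those of mice 2 to 4 were only slightly above that of fl/fl mouse 4. ΔTAM mice 2 to 4 had high *Xist*, whereas fl/fl mouse 4 had low *Xist*. In the high-*Xist* fl/fl mice 1 and 2, the ratio was 0.0537 and 0.0535. The mean log2 ratio was -3.43 ± 0.35 against -4.01 ± 0.25 (SD, n = 4 each), a difference of 0.58 (exact permutation test, *P* = 0.0286). Without ΔTAM mouse 1, the only ΔTAM mouse with low *Xist*, the difference was 0.40. Without ΔTAM mouse 2, 3, or 4, it was 0.63, 0.63, and 0.64. The adjusted *P* was 0.0571 in the exact test whichever ΔTAM mouse was left out.

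*Slc26a6* encodes the apical anion exchanger that secretes oxalate. It lies on the plus strand of chromosome 9, from 108853283 to 108913049. Its level was 11.3, 9.35, 10.2, and 10.1 CPM in ΔTAM mice 1 to 4 and 11.4, 8.04, 9.89, and 6.63 CPM in fl/fl mice 1 to 4. The ranges of both genotypes overlapped, and the log2 fold change was 0.18 (SE 0.169, 95% interval -0.18 to 0.55, adjusted *P* = 0.695), an interval that did not reach the change in *Slc26a1*, its basolateral partner for oxalate.

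The ratio of *Slc26a6* to *Slc26a1* was 0.364, 0.233, 0.273, and 0.378 in ΔTAM mice 1 to 4 and 0.106, 0.0758, 0.0618, and 0.0476 in fl/fl mice 1 to 4. The ratio was thus higher in all ΔTAM mice. The mean log2 ratio was -1.70 ± 0.33 against -3.83 ± 0.49 (SD, n = 4 each), a difference of 2.13 (exact permutation test, *P* = 0.0286). Within the high-*Xist* mice, the differences in the sulfate, citrate, and oxalate pairs were 0.84, 0.62, and 1.68, and the exact test could not go below a *P* value of 0.1 for these 5 mice.

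*Slc26a2* encodes a sulfate transporter of many tissues that supplies cartilage with sulfate. It lies on chromosome 18, from 61192919 to 61211612. Its level was 30.7, 25.3, 25.5, and 30.3 CPM in ΔTAM mice 1 to 4 and 28.9, 21.5, 32.7, and 26.0 CPM in fl/fl mice 1 to 4. The values overlapped throughout, and the log2 fold change was 0.03 (SE 0.131, 95% interval -0.25 to 0.32, adjusted *P* = 0.939). *Slc26a11*, which encodes an anion transporter found in intercalated cells of the collecting duct, lies on the plus strand of chromosome 11, from 119355557 to 119381079. Its level was 9.67, 7.75, 6.65, and 7.04 CPM in ΔTAM mice 1 to 4 and 8.93, 7.40, 12.1, and 9.91 CPM in fl/fl mice 1 to 4. The log2 fold change was -0.30 (SE 0.178, 95% interval -0.69 to 0.09, adjusted *P* = 0.499). The intervals of *Slc26a2* and *Slc26a6* did not include the change of -0.83 in *Slc13a1*, and that of *Slc26a11* did not include it either.

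**Figure D3:**
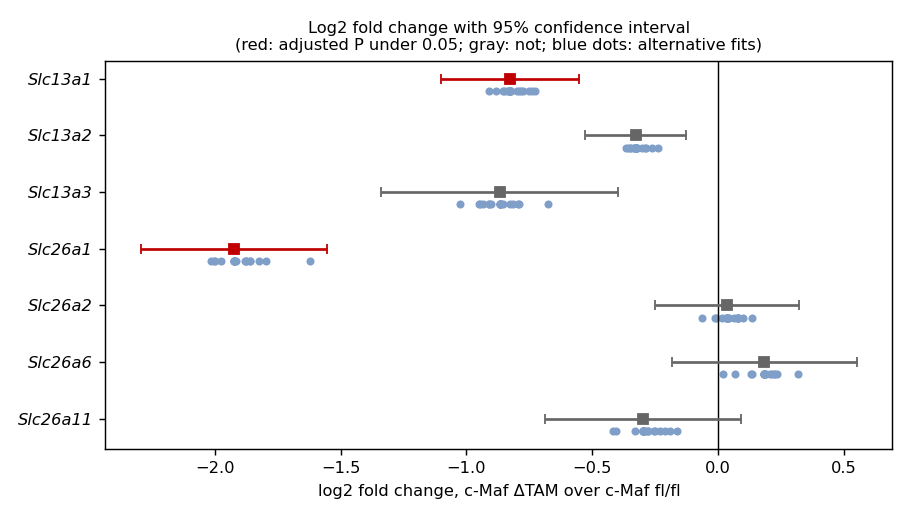
Log2 fold change of the 7 transporter genes in ΔTAM relative to fl/fl mice (horizontal axis), with squares and bars for the estimate and its 95% confidence interval, red where the adjusted *P* was under 0.05, and blue dots for the 19 alternative fits. *Slc26a1* stayed between -2.02 and -1.62 and *Slc13a1* between -0.91 and -0.73, while *Slc26a2* lay on both sides of 0.

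To compare levels between genes, CPM values were divided by the length of the exons that could be counted. This length takes in all annotated exons of a gene (12370 bases for *Slc26a2* and 1780 for *Slc13a2*), whether or not the kidney uses them. The order of the genes therefore depends on the annotation. In fl/fl mice, *Slc13a3* was highest, at 115.6 ± 17.2 CPM per kb (SD, n = 4). *Slc26a1* (32.8 ± 6.70 CPM per kb) and *Slc13a1* (32.8 ± 4.47 CPM per kb) followed and did not differ beyond their spread, and *Slc13a2* was at 20.8 ± 0.73 CPM per kb. *Slc26a11*, *Slc26a2*, and *Slc26a6* were at 2.65, 2.21, and 1.66 CPM per kb, and the ranges of neighbors in this order overlapped.

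In ΔTAM mice, the order of the 4 abundant genes was different. *Slc13a3* was still highest, at 63.4 ± 17.7 CPM per kb (SD, n = 4). *Slc13a1* (18.5 ± 2.70 CPM per kb) and *Slc13a2* (16.6 ± 1.62 CPM per kb) overlapped, and *Slc26a1* (8.65 ± 1.56 CPM per kb) was below *Slc13a2* in 4 of 4 mice. In fl/fl mice, the ranges were the other way round, with *Slc26a1* at 27.1 to 41.0 CPM per kb and *Slc13a2* at 20.1 to 21.8 CPM per kb. The 3 less abundant genes were at 1.89 to 2.26 CPM per kb on average and overlapped with each other.

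**Figure D4:**
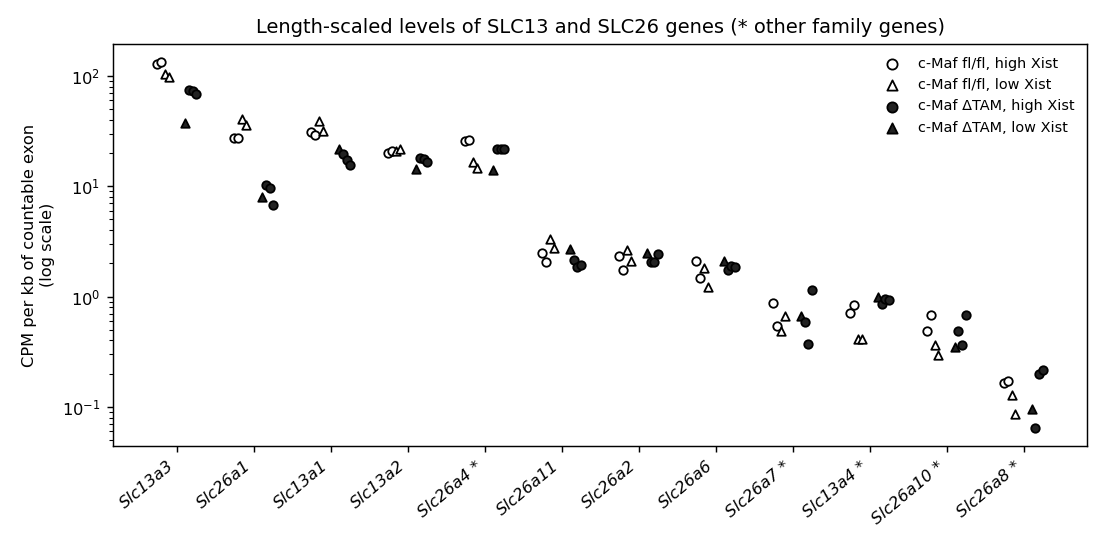
CPM per kb of countable exon on a log scale (vertical axis) for the SLC13 and SLC26 genes that passed the filter, in 4 fl/fl mice (open) and 4 ΔTAM mice (filled), with circles for high *Xist* and triangles for low *Xist*; an asterisk marks the other genes of the 2 families. *Slc13a3* was the most abundant in both genotypes, and *Slc26a1* went from 32.8 to 8.65 CPM per kb.

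Of the other 9 genes of the families listed, 5 passed the filter and none passed the edgeR test, which 2.16% of all genes tested passed. At an unadjusted *P* under 0.05, 1 of the 5 was higher and 0 were lower, against 6.58% and 7.44% of all genes tested. *Slc26a4*, which encodes the chloride-bicarbonate exchanger pendrin of intercalated cells, was at 61.5 ± 12.01 CPM against 64.1 ± 18.6 CPM (log2 fold change -0.06, adjusted *P* = 0.938). *Slc13a4*, a sulfate cotransporter best known from the placenta, was at 4.22 ± 0.27 CPM against 2.70 ± 0.97 CPM, with a log2 fold change of 0.64 that did not pass the threshold (adjusted *P* = 0.265). *Slc26a7*, *Slc26a10*, and *Slc26a8* were at 3.77, 1.79, and 0.684 CPM in ΔTAM mice and at 3.48, 1.73, and 0.654 CPM in fl/fl mice, and the genotypes overlapped. *Slc13a5*, the citrate transporter of the liver, had 3, 4, 2, and 0 counts in ΔTAM mice 1 to 4 and 0, 0, 20, and 18 counts in fl/fl mice 1 to 4, so that 38 of its 47 counts came from the 2 low-*Xist* fl/fl mice. *Slc26a3* had 5 counts over all 8 mice, and *Slc26a5* and *Slc26a9* had 1 each. These 4 genes did not pass the filter. The exact test, which had a lower filter, did not call *Slc13a5* (adjusted *P* = 0.723).

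Genes that make or use sulfate, citrate, and oxalate were counted in 6 further lists, together with the other family genes. Of 52 genes listed, 46 were tested, and in the edgeR test 5 were lower in ΔTAM mice and none was higher, whereas 1.58% of all genes tested were lower and 0.586% were higher. At an unadjusted *P* under 0.05, 15 of the 46 were lower and 2 (*Slc13a4* and *Aco1*) were higher, against 7.44% and 6.58% of all genes tested. When each mouse was left out in turn, *Idh1* passed in 8 of 8 fits, *Bpnt1* and *Grhpr* in 7 (not without ΔTAM mouse 3, with adjusted *P* values of 0.0620 and 0.0722), *Slc25a10* in 6 (not without ΔTAM mouse 2 or 3, with 0.0541 and 0.0631), and *Slc9a3r1* in 1. Of 6 genes of sulfate activation, which turns sulfate into the donor PAPS, *Bpnt1* fell, and 2 were lower at an unadjusted *P* under 0.05. It encodes a phosphatase that clears the PAP left after sulfate transfer, and its level was 118 to 135 CPM in ΔTAM mice against 163 to 209 CPM in fl/fl mice (log2 fold change -0.58, SE 0.103, adjusted *P* = 0.0122). Of 8 genes that form sulfate from cysteine, none passed the edgeR quasi-likelihood test. In contrast, 1 passed with DESeq2, with the exact test, among the high-*Xist* mice, and without fl/fl mouse 1, and 2 passed with the *Xist* covariate. In this order, these settings called 4.4%, 1.91%, 3.75%, 1.72%, and 6.82% of all genes they tested, in either direction. At an unadjusted *P* under 0.05, 3 of the 8 were lower, against 7.44% of all genes tested. The smallest *P* was that of the sulfurtransferase gene *Tst*, at 37.9 CPM against 59.7 CPM (log2 fold change -0.66, adjusted *P* = 0.0911).

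Of 12 genes of citrate and dicarboxylate metabolism, 2 fell, against 1.58% of all genes tested. At an unadjusted *P* under 0.05, 5 were lower and 1 was higher, against 7.44% and 6.58% of all genes tested. *Idh1*, which encodes the cytosolic isocitrate dehydrogenase, was at 81.4, 117.3, 126.8, and 86.8 CPM in ΔTAM mice 1 to 4, whereas fl/fl mice 1 to 4 had 300.7, 317.3, 294.2, and 329.9 CPM. This was 33.2% of the fl/fl level (log2 fold change -1.59, SE 0.139, adjusted *P* = 9.49e-05), the only change among the 46 genes that also passed an adjusted *P* of 0.01. *Slc25a10*, the mitochondrial dicarboxylate carrier, was at 174.6 ± 17.1 CPM against 247.3 ± 9.87 CPM (log2 fold change -0.50, adjusted *P* = 0.0123). The citrate synthase gene *Cs* was at 198.1 CPM against 192.1 CPM (adjusted *P* = 0.860).

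Of 8 genes of glyoxylate and oxalate metabolism, 6 were tested, and *Grhpr*, whose product reduces glyoxylate and so keeps it from becoming oxalate, fell to 78.2 ± 4.03 CPM against 125.2 ± 24.2 CPM (log2 fold change -0.68, SE 0.125, adjusted *P* = 0.0144). This was 1 of the 6 tested, against 1.58% of all genes tested, and 2 of the 6 were lower at an unadjusted *P* under 0.05, against 7.44% of all genes tested. *Agxt* and *Hao1*, best known from the liver, had 2 and 3 counts over all 8 mice. Of 6 apical partner and scaffold genes, *Slc9a3r1*, which encodes the scaffold NHERF1, fell to 164.6 ± 10.96 CPM against 226.1 ± 25.5 CPM (log2 fold change -0.46, adjusted *P* = 0.0334), and this call was fragile. *Slc9a3r1* did not pass with the exact test of edgeR (adjusted *P* = 0.0728), and it passed in only 1 of the 8 fits without 1 mouse (without fl/fl mouse 1), with adjusted *P* values of 0.0332 to 0.0893. It was 1 of 6, against 1.58% of all genes tested, and 3 of the 6 were lower at an unadjusted *P* under 0.05, against 7.44% of all genes tested. Of 3 basolateral organic anion exchanger genes, which trade dicarboxylates for organic anions, none passed the test, and none had an unadjusted *P* under 0.05. The smallest *P* was that of *Slc22a8*, at 209.6 ± 120.2 CPM against 439.1 ± 101.1 CPM (log2 fold change -1.07, SE 0.634, adjusted *P* = 0.528). ΔTAM mouse 1 was at 31.9 CPM and the other 3 at 250.0 to 296.4 CPM, and without mouse 1 the log2 fold change was -0.71 (adjusted *P* = 0.0646). The high-*Xist* mice, which leave it out too, gave -0.97 for *Slc22a8*, which passed the threshold (adjusted *P* = 1.10e-05).

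**Figure D5:**
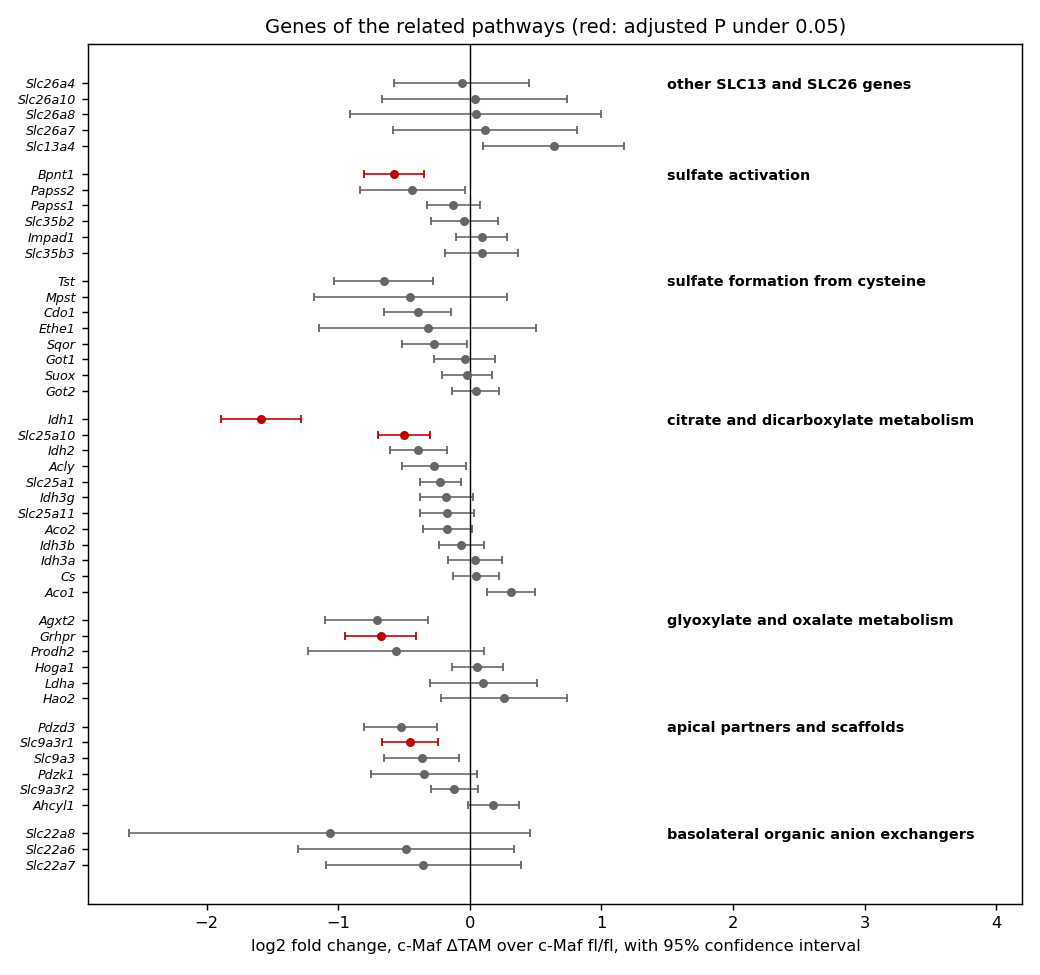
Log2 fold change in ΔTAM relative to fl/fl mice with its 95% confidence interval (horizontal axis) for the 46 tested genes of 7 lists, red where the adjusted *P* was under 0.05. The 5 red genes are *Bpnt1*, *Idh1*, *Slc25a10*, *Grhpr*, and *Slc9a3r1*, all below 0, and *Idh1* lies at -1.59.

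Most of the 7 transporters are proximal tubule genes, and markers of that segment moved with them in part. Of 7 marker genes of the early proximal tubule (segments S1 and S2), 4 fell (*Slc5a2*, *Slc5a12*, *Slc34a1*, and *Slc6a19*, all of them transporters), against 1.58% of all genes tested, and the median log2 fold change of the 7 was -1.23. The other 3, *Lrp2*, *Cubn*, and *Hnf4a*, had log2 fold changes of -0.17, -0.03, and -0.20, and none of them passed the test. By qPCR, the paper reported lower *Lrp2* and *Cubn* in ΔTAM mice. The summed level of the list was 8479 to 12150 CPM in ΔTAM mice and 13851 to 15955 CPM in fl/fl mice. *Lrp2* made up the largest share, with means of 6759 CPM in ΔTAM and 7580 CPM in fl/fl mice. *Slc34a1* had means of 1745 CPM and 4098 CPM. The part of this list in the changes of *Slc26a1* and *Slc13a1* was not tested. None of 6 genes of the late proximal tubule (segment S3) passed the test, with summed levels of 1086 to 4616 CPM against 768.1 to 3042 CPM. In 5 of these 6 genes, the 3 mice with low *Xist* were all above the other 5. The exception was *Slc7a12*, at 235.8 CPM in the low-*Xist* ΔTAM mouse against 226.6 to 313.7 CPM in the other ΔTAM mice, and at 40.7 and 60.0 CPM in the low-*Xist* fl/fl mice against 165.0 and 227.1 CPM in the other 2. *Slc7a13* was at 204.2 to 324.3 CPM in these 3 mice and at 0.41 to 1.08 CPM in the other 5, *Cyp7b1* at 97.8 to 170.3 CPM and 1.66 to 2.55 CPM, and *Acsm3* at 386.7 to 544.6 CPM and 2.03 to 6.82 CPM. The SEs of the log2 fold changes of these 3 genes between genotypes were 1.94 to 2.46. Of the lists for other kidney cells, endothelium had 1 gene lower of 6 (*Kdr*), and those for the thick limb, distal convoluted tubule, principal cells, intercalated cells, podocytes, macrophages, lymphocytes, fibroblasts, hepatocytes, and tubular injury had none in either direction.

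The patterns of the 7 genes over the 8 mice were compared with those of 9749 or 9750 other genes of at least 10 CPM, by the Pearson correlation of log2 CPM. The 3 genes most like *Slc26a1* were *Dpep1*, *Slc16a10*, and *Slc34a1* (r = 0.996, 0.996, and 0.994). Those most like *Slc13a1* were *Timp3*, *Atp6v1e1*, and *Tnfaip8* (r = 0.983, 0.978, and 0.977), and those most like *Slc13a3* were *Bod1*, *Slc22a23*, and *Eif3i* (r = 0.992, 0.991, and 0.988). *Slc13a2* was most like *Susd2*, *Slc25a48*, and *Arhgef2* (r = 0.989, 0.986, and 0.983). For these 4 genes, the separation of the genotypes enters the correlation, and all points share library scaling. For *Slc26a2*, *Slc26a6*, and *Slc26a11*, the highest correlations were lower, at 0.914 with *Tyk2*, 0.959 with *Fbxl18*, and 0.968 with *Capns1*; the second and the third were *Dph3* and *Zmynd8* (r = 0.909 and 0.906), *Zyg11b* and *Cep170* (r = 0.951 and 0.942), and *Trappc9* and *Igf1r* (r = 0.966 and 0.954).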

How the data were processed

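RNA-Seq counts of whole kidneys from 4 c-Maf ΔTAM and 4 c-Maf fl/fl mice were analysed, with each mouse as 1 replicate; samples were grouped by genotype as labeled. The authors deposited whole-number counts per gene name, which the file header ascribes to featureCounts 2.0.1 with Ensembl 102 exons (GRCm38). The submitters' processing notes give Subread 2.0.2 and edgeR 3.36.0. Reads of a pair were counted separately, without strand, and reads on exons of more than 1 gene were dropped. The aligner is not given in the sources used here. The paper's own expression values were made by another route, which was not repeated; 0 count columns were left unused.

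Genes were filtered with filterByExpr, scaled by TMM (factors 0.857 to 1.11), and compared without covariates by edgeR's robust quasi-likelihood test (edgeR 4.0.16, limma 3.58.1, R 4.3.3). The biological coefficient of variation was 0.203. The standard error is the absolute log2 fold change over the square root of F. The fits were checked on simulated counts with known changes. There, DESeq2 and the exact test made more false calls than the quasi-likelihood test (37 and 30 against 8). They also recovered more of the known changes (81% and 83% against 76%). Pairs used exact permutation tests (Python 3.11.15). Alternatives were other scalings, tests (DESeq2 1.42.0), filters, a replicate block, *Xist*, an adjusted *P* under 0.01, and leaving out each mouse. Overlaps came from the file's coordinates. Figures were drawn with matplotlib 3.10.9.

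Genes named were the 7 transporters, *Maf*, the other family genes, all called pathway genes, the gene with the smallest *P* of lists without a call, and the 3 genes most correlated with each transporter. Marker genes were named beside results they moved with. *Idua*, *Slc13a2os*, *Cs*, *Aco1*, *Agxt*, *Hao1*, and the marker genes singled out (*Ahsg*, *Lrp2*, *Cubn*, *Hnf4a*, *Kdr*, *Slc7a12*, *Slc7a13*, *Cyp7b1*, and *Acsm3*) were named after their values were seen. The members and lists were chosen with earlier results of these data known, so their counts are descriptions. Nothing says more of the mice's independence than their labels, so *P* values measure the spread between these samples.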

Additional observations from a re-analysis of the deposited data

Results flagged for a closer look

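*Slc13a3* was at 193.3 CPM in ΔTAM mouse 1, against 359.8 to 385.6 CPM in the other 3 mice of that genotype, and the gap was 0.866 of the range of the group, beyond Dixon's 95% limit for 4 samples. *Slc26a4* was at 43.5 CPM in the same mouse, against 67.1 to 67.7 CPM in the other 3 (0.974 of the range). In all, 36 groups of 4 mice were examined over 18 genes, and chance alone gives about 1.8 such values, against 2 found. The part of the mitochondrial share or the *Xist* level of this mouse in these values was not tested.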

How the results depend on the processing

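*Slc26a1* was past the threshold in all 19 alternative fits (log2 fold change -2.02 to -1.62) and *Slc13a1* in 18. *Slc13a3* passed in 5 of 19: DESeq2 (-0.87), the exact test (-0.87), the *Xist* covariate (-1.03), the mice with high *Xist* (-0.85), and without ΔTAM mouse 1; *Slc13a2* passed with DESeq2 (-0.33) and the *Xist* covariate (-0.35). With each mouse left out, *Slc13a3* ranged from -0.95 to -0.68 and *Slc26a2* from -0.06 to 0.14. *Slc26a2* turned to -0.0099 without ΔTAM mouse 1, -0.0070 without ΔTAM mouse 4, and -0.064 without fl/fl mouse 2.

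Against 436 genes, 2 transporters, and 5 pathway genes called, DESeq2 gave 886, 4, and 10, the *Xist* covariate 1374, 4, and 14, and the mice with high *Xist* 789, 3, and 10. An adjusted *P* under 0.01 gave 180, 2, and 1. With each mouse left out, the counts were 239 to 452 genes (239, 256, and 285 without ΔTAM mice 3 and 2 and fl/fl mouse 3) and 1 to 8 pathway genes (1 and 3 without ΔTAM mice 3 and 2, 8 without fl/fl mouse 1). The causes were not tested.

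Same-numbered mice did not deviate together (r = -0.37, 0.15, -0.11, and -0.33 for numbers 1 to 4). At numbers 1, 3, and 4, the 2 mice also differed in *Xist* level, so these values cannot show whether the numbers pair the mice. With the replicate number as a block, 129 genes, 1 transporter, and 1 pathway gene were called, and *Slc13a1* was at -0.83 with an adjusted *P* of 0.0654. The paired differences of the 3 ratios under that block were 1.09, 0.58, and 2.13, each with an exact *P* of 0.125, the smallest possible there. Among the mice with high *Xist*, they were 0.84, 0.62, and 1.68, with *P* = 0.1, also the smallest possible in that exact test. With each mouse left out, the citrate ratio ranged from 0.40 to 0.68, and its adjusted *P* was 0.0571 without any one ΔTAM mouse in the exact test. The sulfate (0.97 to 1.17) and oxalate (1.94 to 2.33) ratios had an adjusted *P* of at most 0.0429. Their unadjusted *P* in the exact test was 0.0286 in each of these fits, the smallest possible with 35 assignments.

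Low counts limit *Slc13a5*, *Slc26a3*, *Slc26a5*, and *Slc26a9*.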
